A study of Homo sapiens with 6 samples.

Results

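The genes described here are 10 of the insulin-like growth factor (IGF) axis, namely the binding protein genes IGFBP2, IGFBP3, IGFBP4, IGFBP5, IGFBP6 and IGFBP7, the receptor genes IGF1R and IGF2R, and the receptor substrate genes IRS1 and IRS2. They were taken by name, and every probe set annotated with exactly 1 gene symbol was read. That gave 10 probe sets of 9 genes, 2 of them for IGF1R, out of 19158 probe sets of 18404 genes. IGFBP6 was not read, because its annotated probe set names a further gene. The arrays held RNA of PrEC, an immortalized line of normal human prostate epithelial cells, with 3 samples carrying a hairpin against PKCλ/ι (shPKCi) and 3 carrying the hairpin labelled shNT. All 6 were grown in a prostate epithelial medium, whose supplements are known to include insulin, and were collected 48 hours after plating under basal conditions with no agent added. The series text calls the samples of each line biological replicates. The labels name 1 hairpin a group and give no number of clones, so that loss of PKCλ/ι and any other difference between the 2 lines cannot be told apart.

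IGFs are secreted hormones that act through the receptor tyrosine kinase IGF1R, which phosphorylates the docking proteins IRS1 and IRS2 and so engages PI3K and AKT. The binding proteins hold IGFs outside the cell, where they can carry them or keep them from the receptor until proteases release them, and IGF2R takes up IGF2 for breakdown in lysosomes. In the prostate, epithelial cells are known to respond to IGFs that come largely from the stroma, and IGFBP3 is widely studied as a restraint on epithelial growth.

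Of this gene group, the transcripts of IGFBP3, IGFBP2, IGF1R and IRS2 were lower in shPKCi cells and none was higher. The largest difference was in IGFBP3, 4.69-fold lower. IGFBP2 was 1.86-fold lower, and the IGF1R probe sets were 1.47-fold and 1.86-fold lower. IRS2 was 1.35-fold lower, a call that several other settings did not keep. At an adjusted p under 0.05 (limma, Benjamini-Hochberg over all 19158 probe sets), 5 of the 10 probe sets were lower, 0 were higher and 5 did not pass. Over all probe sets, 8.53% were lower and 9.03% higher by that rule, together 17.6%. That balance depended on the scaling: as deposited, 1730 were higher and 1634 lower, while with the arrays centred on their medians 2085 were higher and 1322 lower. The median log2 fold change of the 10 was -0.42, beside -0.02 over all probe sets. These are bulk samples, in which fewer cells of a type and less RNA per cell cannot be told apart.

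The stretches before the transcription starts of 3 of these genes are given because their transcripts behaved unlike each other: IGFBP3 had the largest difference of the group, and of the receptors IGF1R was lower while IGF2R was nearly level. Each run is the 250 bases before the annotated start, 5′ to 3′ on the gene's strand, from RefSeq on build GRCh38.p14: chr7:45921273-45921522 on the minus strand for IGFBP3, chr15:98648289-98648538 on the plus strand for IGF1R and chr6:159968832-159969081 on the plus strand for IGF2R. Capitals mark matches on either strand to ACGTG or, in the other form of this core of the hypoxia response element, to GCGTG. They also mark the motif TATANA, which resembles a TATA box.
IGFBP3: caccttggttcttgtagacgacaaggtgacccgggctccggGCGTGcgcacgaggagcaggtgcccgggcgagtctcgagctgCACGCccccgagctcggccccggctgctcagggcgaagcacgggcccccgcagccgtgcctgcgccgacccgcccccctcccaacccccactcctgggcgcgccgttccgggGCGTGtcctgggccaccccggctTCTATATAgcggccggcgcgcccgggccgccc
IGF1R: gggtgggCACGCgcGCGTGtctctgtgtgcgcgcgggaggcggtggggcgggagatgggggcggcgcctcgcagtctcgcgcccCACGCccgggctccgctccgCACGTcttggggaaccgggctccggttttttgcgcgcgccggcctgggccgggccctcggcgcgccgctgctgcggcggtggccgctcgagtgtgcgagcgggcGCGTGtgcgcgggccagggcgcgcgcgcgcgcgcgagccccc
IGF2R: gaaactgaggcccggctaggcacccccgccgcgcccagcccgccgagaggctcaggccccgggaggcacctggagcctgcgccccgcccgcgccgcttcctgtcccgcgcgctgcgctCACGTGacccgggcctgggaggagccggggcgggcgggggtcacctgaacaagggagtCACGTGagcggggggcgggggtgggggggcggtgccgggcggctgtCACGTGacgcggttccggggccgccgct
The IGFBP3 run holds 3 matches to GCGTG and none to ACGTG. Its TATA-like letters form 1 cluster of 3 overlapping matches on both strands, with a TATATA from 30 to 25 bases before the start. The IGF1R run holds 4 matches to GCGTG, 1 to ACGTG and none to TATANA. In IGF2R the 6 matches to ACGTG are 3 palindromes CACGTG, each read once on either strand, and neither GCGTG nor TATANA occurs. Of all 35116 promoter windows of that length in the table, 32.2% hold a match to GCGTG. A match to ACGTG is in 18.5% and one to TATANA in 17.7%. The core letters GTAAACA of a FOXO site lie in none of these 3 runs, and are in 2.98% of all windows. The runs are rich in G and C, at 76.0% for IGFBP3, 81.2% for IGF1R and 79.2% for IGF2R, where the median of all windows is 58.0%, and letter counts of this kind describe the sequence and not the binding of any factor.

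The gene that the hairpin targets was read first as a check of the labels. PRKCI, which encodes PKCλ/ι, had intensities of 800.3, 810.2 and 754 in shPKCi arrays, against 1635, 1428 and 1843 in shNT arrays. Its log2 fold change was -1.05 (SE 0.11, limma adjusted p = 0.000415). PRKCZ, the gene of the other atypical isoform, had a log2 fold change of -0.54 (SE 0.09, limma adjusted p = 0.0032), a call lost against a fold of 1.2 (limma's treat, adjusted p = 0.0832). Among arrays, shNT replicate 2 stood apart, with correlations of log2 values of 0.973 to 0.988 with the others, which correlated at 0.982 to 0.996 among themselves. Median intensities lay between 67.4 and 69.1 in shPKCi arrays and between 69.3 and 72.6 in shNT arrays. Precision is limited by the 3 arrays a group.

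**Figure D1:**
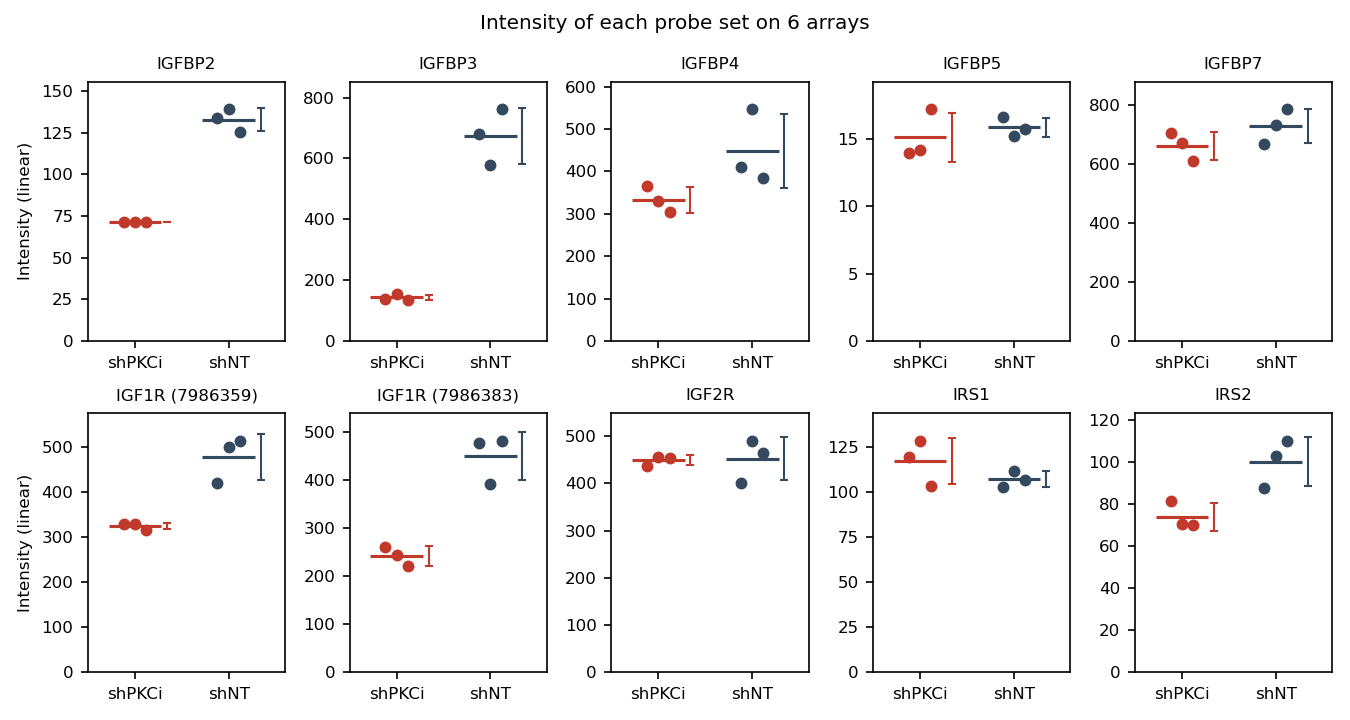
Intensity on a linear scale (vertical axes, each from 0) of the 10 probe sets in 3 shPKCi arrays (red, left) and 3 shNT arrays (dark, right); dots are arrays, horizontal lines group means and error bars 1 SD. IGFBP3 lies between 136 and 154 in shPKCi and between 577 and 762 in shNT, while the IGF2R arrays of the groups overlap.

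Among binding proteins, IGFBP3 encodes the main carrier of IGFs in blood and a secreted product of many epithelial cells. Its probe set (8139488) had intensities of 139, 154 and 136 in shPKCi arrays, against 681, 577 and 762 in shNT arrays. The highest shPKCi array lay far below the lowest shNT array. On the log2 scale the means were 7.16 ± 0.10 in shPKCi and 9.39 ± 0.20 in shNT (SD, n = 3 each), a log2 fold change of -2.23 (SE 0.12, limma adjusted p = 1.43e-05). Among all 19158 probe sets it had the 23rd lowest log2 fold change, and it was the 1 probe set of the group among the 243 that were called and at least 2-fold lower. In the 18 alternative settings its log2 fold change stayed between -2.34 and -2.11.

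IGFBP2, a binding protein abundant in fetal tissues and in many tumours, was lower with little spread. It had intensities of 71.2, 71.5 and 71.2 in shPKCi arrays, against 134, 139 and 126 in shNT arrays. All 3 shPKCi arrays were nearly level with each other and well under every shNT array. The log2 fold change was -0.90 (SE 0.09, limma adjusted p = 0.000276), with means of 6.16 ± 0.0034 in shPKCi and 7.05 ± 0.07 in shNT (SD, n = 3 each). Its promoter table entries list 3 alternative starts, and the probe set does not tell which of them was used.

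IGFBP4, which the protease PAPPA cleaves, did not pass the test, although its groups did not overlap. Intensities were 365, 330.1 and 304 in shPKCi arrays, against 411, 547 and 384 in shNT arrays. The array of shNT replicate 2 was the high one, and the other shNT arrays lay just above the shPKCi arrays. The log2 fold change was -0.41 (SE 0.14, limma adjusted p = 0.0862, 95% interval -0.74 to -0.09 before adjustment). Without shNT replicate 2 it was -0.26 (limma adjusted p = 0.127), and it passed in 1 of 18 alternative settings, a filter at the median signal (limma adjusted p = 0.0450).

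IGFBP7, a matrix-associated protein that binds IGFs weakly, and IGFBP5, which binds both IGFs and extracellular matrix, did not pass either. IGFBP7 had intensities of 705, 671 and 610.3 in shPKCi arrays, against 670.1, 732 and 787 in shNT arrays. The groups overlapped, and the log2 fold change was -0.14 (95% interval -0.38 to 0.10, limma adjusted p = 0.444). IGFBP5 was dim, at 14.0, 14.2 and 17.2 in shPKCi arrays, against 16.6, 15.2 and 15.7 in shNT arrays. It was the 1 probe set of the group whose mean lay under the lower quartile of all probe sets, an intensity of 26.4, where signal and background cannot be told apart without detection calls. Its log2 fold change was -0.08 (95% interval -0.32 to 0.17, limma adjusted p = 0.723).

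Of the receptors, IGF1R was lower by both of its probe sets. Probe set 7986359 had intensities of 329, 328 and 317 in shPKCi arrays, against 419.8, 499 and 513 in shNT arrays. Probe set 7986383 had 261, 244 and 221 in shPKCi arrays, against 478, 393 and 483 in shNT arrays. In both, every shPKCi array lay below every shNT array. The log2 fold changes were -0.55 (SE 0.11, limma adjusted p = 0.00717) for probe set 7986359 and -0.90 (SE 0.12, limma adjusted p = 0.00107) for probe set 7986383.

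Whether the IGF1R difference had the same size in both probe sets could not be settled with these arrays. The log2 value of 7986383 minus that of 7986359 averaged -0.43 ± 0.09 in shPKCi and -0.08 ± 0.27 in shNT (SD, n = 3 each). In shPKCi arrays this within-array value ran between -0.52 and -0.33, and in shNT arrays it was 0.19, -0.34 and -0.09. The groups overlapped through shNT replicate 2 alone, and the other shNT arrays lay above every shPKCi array. The difference of -0.34 gave p = 0.2 in a two-sided exact permutation test, which at 3 arrays a group cannot go below 0.1 and so could not have passed 0.05.

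IGF2R, which is also the cation-independent mannose 6-phosphate receptor and sorts enzymes to lysosomes, was nearly level. It had intensities of 437, 456 and 454 in shPKCi arrays, against 402, 490.3 and 464 in shNT arrays. The shPKCi arrays fell inside the range of the shNT arrays. Its log2 fold change was -0.01 with a 95% interval from -0.24 to 0.23 (limma adjusted p = 0.982), and its sign turned in 5 of 18 alternative settings.

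The receptor substrates differed from each other in outcome. IRS2, a docking protein of insulin and IGF receptors, had intensities of 81.3, 70.3 and 69.9 in shPKCi arrays, against 87.5, 103 and 110.0 in shNT arrays. No shPKCi array reached the lowest shNT array, shNT replicate 1. The log2 fold change was -0.44 (SE 0.12, limma adjusted p = 0.0331), with means of 6.20 ± 0.12 in shPKCi and 6.64 ± 0.17 in shNT (SD, n = 3 each). The call was lost without shPKCi replicate 2 (limma adjusted p = 0.126) or 3 (0.112), without shNT replicate 2 (0.0543) or 3 (0.109), and after median centring of the arrays (0.0603), while the log2 fold change stayed between -0.53 and -0.36 in all 18 alternatives.

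IRS1, the other substrate, had intensities of 120, 128 and 104 in shPKCi arrays, against 103, 112 and 107 in shNT arrays. The groups overlapped, and its log2 fold change was 0.12 (95% interval -0.12 to 0.37, limma adjusted p = 0.514). It was the 1 probe set of the 10 whose mean was higher in shPKCi. Whether the changes of IRS1 and IRS2 differ from each other was not tested. Across the group, 6 of 10 probe sets had arrays that did not overlap between the lines, beside 35.3% of all probe sets.

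**Figure D2:**
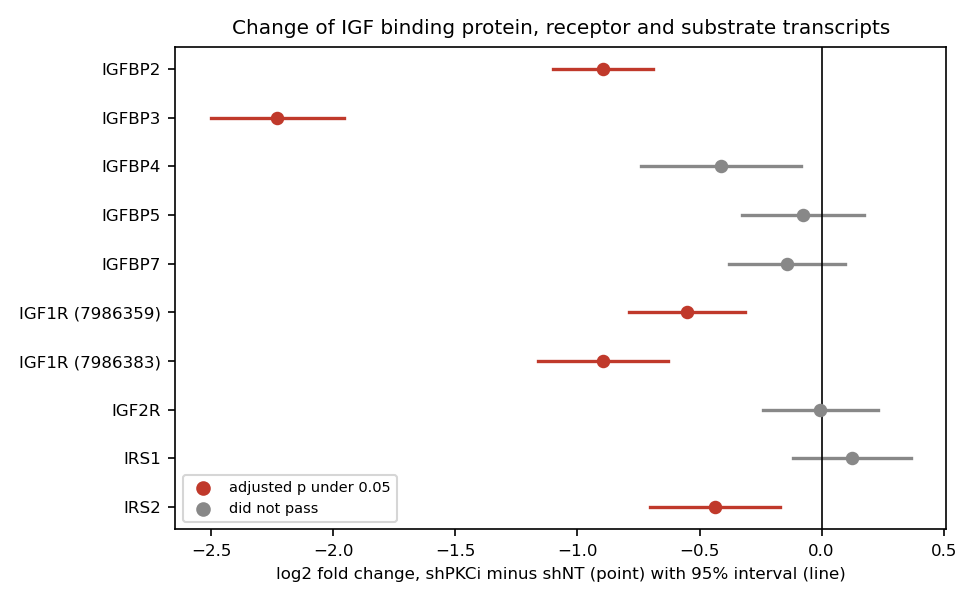
Log2 fold change, shPKCi minus shNT (horizontal axis), of the 10 probe sets, with points for the fitted value and lines for its 95% interval, in red where the adjusted p was under 0.05. IGFBP3 at -2.23 lies apart from the other 4 called probe sets, which run between -0.90 and -0.44.

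Beyond these genes, 9 lists described the rest of the IGF axis, with 81 of 88 genes read, each by its probe set of highest mean. Of the 81, 14 were lower (17.3%), 3 were higher (3.70%) and 64 did not pass, beside the 8.53% and 9.03% of all probe sets. The median log2 fold change of the 81 was -0.06, beside -0.02 over all probe sets.

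Of 5 genes in the list of IGF and insulin ligands with serum carriers, 3 were read, namely IGF1, IGFBP1 and IGFALS. The ligand genes IGF2 and INS had no probe set of 1 symbol, so IGF1 was the only ligand gene read. None of the 3 gave a call, nor did the 2 insulin receptor genes. IGF1 was dim, under the lower quartile of signal, at 10.4, 8.21 and 8.95 in shPKCi arrays, against 10.3, 9.40 and 8.86 in shNT arrays. IGFBP1, the hormone-regulated binding protein best known from liver, had a log2 fold change of 0.04 (SE 0.10, limma adjusted p = 0.861). INSR, the insulin receptor gene, had intensities of 23.2, 18.4 and 19.5 in shPKCi arrays, against 28.1, 22.8 and 26.1 in shNT arrays. Its groups overlapped by a small margin, its mean lay under the lower quartile of signal, and the log2 fold change was -0.33 (SE 0.12, limma adjusted p = 0.103), which passed without shNT replicate 2 (-0.42, limma adjusted p = 0.0403) and with array weights (-0.44, limma adjusted p = 0.0147). With 16 added to each intensity before the log it was -0.20 (limma adjusted p = 0.139).

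Among proteases that cut binding proteins and the stanniocalcins that inhibit PAPPA, 3 of 11 genes were lower (27.3%) and 0 higher. Of all probe sets, 8.53% were lower and 9.03% higher. The list had a median log2 fold change of -0.24. STC1, a secreted stanniocalcin, had intensities of 59.1, 67.4 and 58.4 in shPKCi arrays, against 207, 182 and 234 in shNT arrays. That is 3.36-fold lower with no overlap (log2 fold change -1.75, SE 0.12, limma adjusted p = 3.9e-05). HTRA1, a secreted serine protease with an IGFBP-like domain, fell by 0.69 on the log2 scale (limma adjusted p = 0.00134). CTSD, the lysosomal protease cathepsin D, fell by 0.52 (limma adjusted p = 0.00884), a call lost without shPKCi replicate 2 (limma adjusted p = 0.0503) and against a fold of 1.2 (0.189). PAPPA did not pass, at 0.28 on the log2 scale (SE 0.12, limma adjusted p = 0.170), nor did STC2, the other stanniocalcin, at -0.06 (SE 0.10, limma adjusted p = 0.732).

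Downstream of the receptor, the called genes of the adaptor list went both ways, and 12 of 14 did not pass. GAB1, a docking protein for PI3K and the phosphatase SHP2, had intensities of 281, 290.2 and 275 in shPKCi arrays, against 467, 438 and 491 in shNT arrays (log2 fold change -0.72, SE 0.09, limma adjusted p = 0.000985). A dimmer probe set of GAB1 (8102982), not used in these counts, had a log2 fold change of -0.27 and did not pass. GRB2, the adaptor that links receptors to RAS, rose by 0.59 on the log2 scale (limma adjusted p = 0.00223). These were the 1 lower and 1 higher of 14 genes in the adaptor list (7.14% each), beside 8.53% and 9.03% of all probe sets. The list median was -0.06.

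The PI3K, AKT and mTOR list had a median of 0.02 and 1 called gene of 13 (7.69%), beside 17.6% of all probe sets. That gene was PIK3R3, a regulatory subunit of PI3K. It had intensities of 761, 791 and 771 in shPKCi arrays, against 318, 231 and 355 in shNT arrays, more than 2-fold apart in every pair of arrays. The log2 fold change was 1.39 (SE 0.15, limma adjusted p = 0.000434), while AKT1 had 0.07 (SE 0.09, limma adjusted p = 0.717).

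FOXO factors are transcription factors that AKT keeps out of the nucleus, and they are themselves controlled mainly in protein. FOXO1 and FOXO3 had log2 fold changes of 0.0038 (SE 0.11, limma adjusted p = 0.989) and 0.07 (SE 0.24, limma adjusted p = 0.899). Among 14 genes of the FOXO list, 6 were lower (42.9%) and 1 higher (7.14%), with a median of -0.28. The shares over all probe sets were 8.53% lower and 9.03% higher. BCL6, a transcriptional repressor, had intensities of 50.9, 44.8 and 47.5 in shPKCi arrays, against 118, 117 and 118 in shNT arrays (log2 fold change -1.30, SE 0.09, limma adjusted p = 4.5e-05). FBXO32, a ubiquitin ligase subunit, fell by 1.01 on the log2 scale, CITED2, a coregulator that competes with hypoxia-inducible factors for their coactivators, by 0.95, and the stress gene SESN1 by 0.85. SESN3 and CCNG2, named after their values were seen, fell by 0.74 and 0.57 on the log2 scale. TXNIP, a thioredoxin-binding protein that curbs glucose uptake, was the 1 higher gene, at 319, 351 and 379 in shPKCi arrays, against 109, 135 and 114 in shNT arrays. Its log2 fold change was 1.55 (SE 0.12, limma adjusted p = 5.64e-05), opposite in sign to the 6.

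Proteins that carry an IGFBP-type domain outside the family gave 3 lower (23.1%) and 0 higher of 13, with a median of -0.10. Across all probe sets, 8.53% were lower and 9.03% higher. CRIM1, a membrane protein, had intensities of 371, 391 and 401 in shPKCi arrays, against 715, 813 and 777 in shNT arrays (log2 fold change -0.99, limma adjusted p = 0.000226). CCN2, the connective tissue growth factor gene, fell by 0.98 (limma adjusted p = 0.000231), and HTRA1 was the third. Of the 3 genes for IGF2 mRNA-binding proteins, IGF2BP2 fell by 0.54 (limma adjusted p = 0.00619), a call lost when tested against a fold of 1.2 with limma's treat (adjusted p = 0.134). Among 9 genes that sort mannose 6-phosphate cargo or act with IGF2R at the surface, PLAUR, the urokinase receptor gene, fell by 0.41 (limma adjusted p = 0.0233). That call was lost without shPKCi replicate 1 (limma adjusted p = 0.0882) or 2 (0.107) or shNT replicate 3 (0.0796), over all probe sets, named or not (0.0632), and against a fold of 1.2 (0.604).

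**Figure D3:**
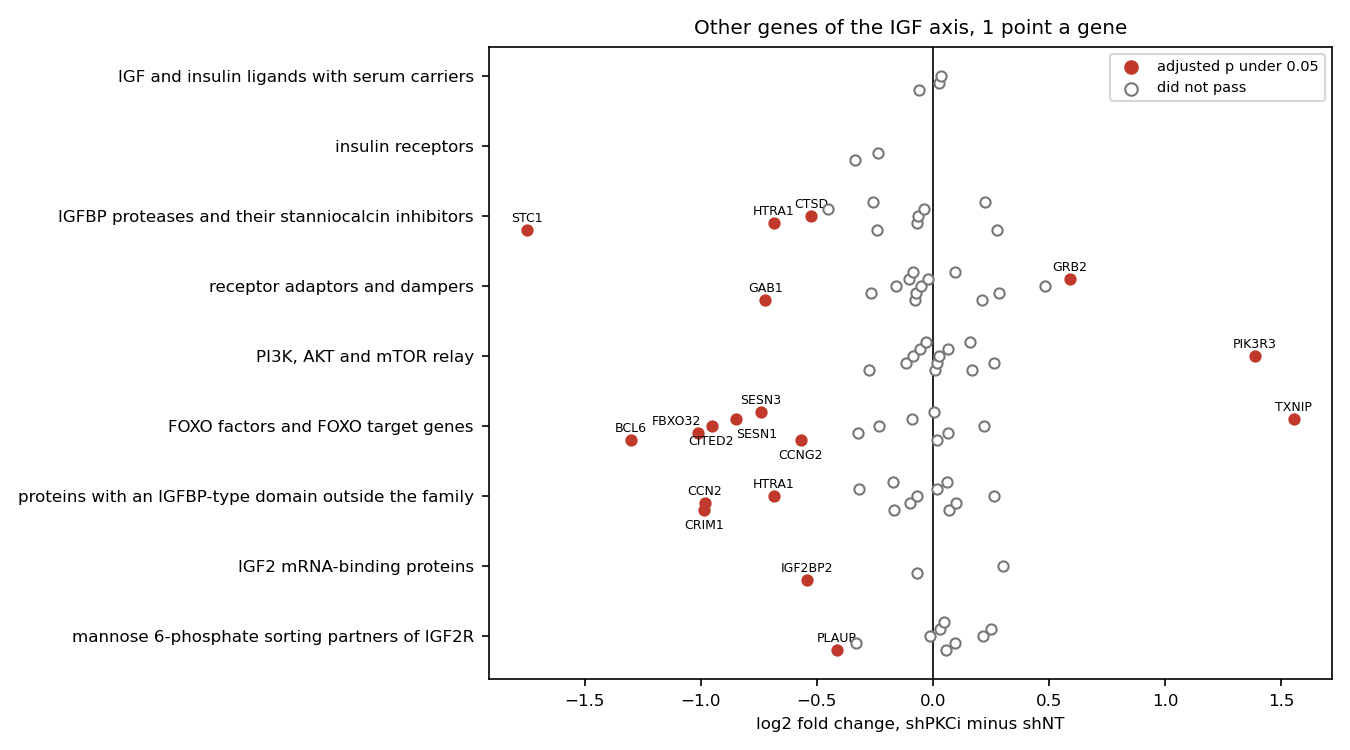
Log2 fold change, shPKCi minus shNT (horizontal axis), of the genes in 9 lists of the IGF axis (rows), 1 point a gene, filled red and named where the adjusted p was under 0.05; vertical offsets within a row only separate points. STC1 at -1.75 and BCL6 at -1.30 are the lowest, and TXNIP at 1.55 and PIK3R3 at 1.39 the highest.

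The genes whose log2 values followed IGFBP3 most closely over the 6 arrays included members of these lists. By Pearson's r they were ARLN (0.9997), STC1 (0.9994), GAB1 (0.9994), MALL (0.9993) and ARRDC3 (0.9992). All 5 were lower in shPKCi, with log2 fold changes of -1.18 for ARLN, -1.14 for MALL and -1.27 for ARRDC3. In each, as in IGFBP3, shNT replicate 2 was the lowest and shNT replicate 3 the highest of the shNT arrays. With 2 groups and 6 arrays such values mostly reflect the difference between groups: 137 probe sets had an r of at least 0.99 and 847 at least 0.95.

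Markers of the cells were read beside these values. Of 9 prostate epithelial markers, 4 were lower, namely KRT14, ITGB4, CDH3 and DSG3, with DSG3 the lowest at a log2 fold change of -1.42. EPCAM was the 1 higher, at 0.60, beside the 8.53% lower and 9.03% higher of all probe sets. The other 4 did not pass, with KRT5 at -0.27, CDH1 at -0.29, KRT8 at 0.34 and KRT18 at 0.27. The summed intensity of the 9, which joins markers of opposite sign, ran from 14593 to 14989 in shPKCi arrays and from 15407 to 16337 in shNT arrays. Of 9 fibroblast and stroma markers, COL1A1 alone was lower and none was higher, with sums of 901 to 963 in shPKCi and 1079 to 1183 in shNT. The fibroblast markers DCN, LUM and PDGFRA lay under the lower quartile of signal. Endothelial markers gave 1 lower of 4 (KDR) and blood cell markers 1 higher of 4 (CD3D), but both of these, all 4 endothelial markers and 3 of the 4 blood cell markers lay under the lower quartile too. The exception was CD68, a macrophage and lysosomal gene, which made up most of the blood cell sum, at 247, 243 and 238 in shPKCi arrays, against 291, 289 and 269 in shNT arrays. The endothelial sum was 76.1 to 81.4 in shPKCi and 79.0 to 92.7 in shNT, and the blood cell sum 288 to 301 in shPKCi and 316 to 338 in shNT. No marker was listed at 0, which without detection calls does not show that any of them was expressed. The part of these marker differences in the IGF axis values was not tested.

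**Figure D4:**
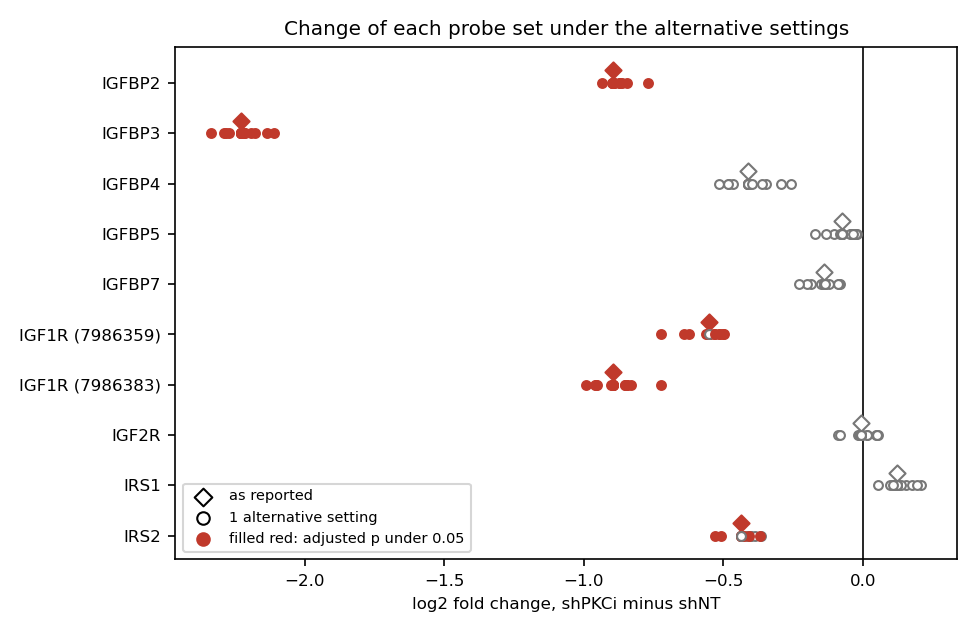
Log2 fold change, shPKCi minus shNT (horizontal axis), of the 10 probe sets as reported (diamonds) and under up to 18 alternative settings (circles), filled red where the adjusted p was under 0.05. IGFBP3, IGFBP2 and IGF1R probe set 7986383 stay filled throughout, while IRS2 has both filled and open circles.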

How the data were processed

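Total RNA of 6 PrEC samples was biotin-labelled for 1 array a sample (per the labels' protocols) and grouped by sample title. The deposited values are probe set intensities made by the authors with RMA, a method of array normalization and summary, per the submitters' processing notes. They lie on a linear scale, judged from the values. Which RMA version and which genome build they used is not given in the sources used here. Of 32321 probe sets, 19158 had 1 symbol in the platform annotation, 1388 had several and 11775 were not listed. Intensities were turned to log2 and fitted with limma 3.58.1 (lmFit, eBayes) in R 4.3.3, without covariates or filter, with Benjamini-Hochberg adjustment across the 19158 probe sets. The fit was tested on simulated data. No detection calls were used, and arrays understate differences at low signal and near saturation.

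The members and lists were chosen with earlier results of these data known. Named besides the members, PRKCI and PRKCZ were up to 5 called genes of smallest adjusted p in each of 9 lists, 11 further genes of the axis of which 8 had a probe set of 1 symbol, and the 5 genes most like the called member of largest change. Genes without such a probe set were not analysed here. P-values measure the spread between these samples. The alternatives tried were the replicate number as a block, leaving out single arrays, median centring, cyclic loess, signal filters, other rules for genes with several probe sets, all probe sets, trended robust variance, array weights, treat against a fold of 1.2, log2 of intensity plus 16, and a threshold of 0.01. Promoter windows came from RefSeq.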

Additional observations from a re-analysis of the deposited data

How the results depend on the processing

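IGFBP3 and IGFBP2 kept their direction and their call in every alternative run, with log2 fold changes of -2.34 to -2.11 and -0.93 to -0.77. IGF1R probe set 7986383 kept both in every run that read it by itself, at -0.99 to -0.83. The mean of the IGF1R probe sets was lower by 0.72 (limma adjusted p = 0.00092). With only the probe set of highest mean kept for each gene, 7986383 was not read. IGF1R probe set 7986359 lost its call only in treat against a fold of 1.2 (-0.55, limma adjusted p = 0.142), where 3 probe sets of the group were lower. IRS2 kept 10 of 18 calls. It lost the call at an unchanged -0.44 with the replicate block (adjusted p = 0.0684), with all probe sets, named or not (0.0881), and with treat (0.603), at -0.38 with median centring, and without 4 of the 6 arrays in turn, the range without 1 array being -0.53 to -0.36. IGFBP4 passed with a filter at the median signal (-0.41, adjusted p = 0.0450). IGF2R turned to 0.046 with median centring and 0.052 with array weights, and ran from -0.088 to 0.056 without 1 array. Without 1 array 4 or 5 probe sets of the group were lower. The cause of these shifts was not tested. Over all probe sets, 485 were higher and 590 lower with treat, 823 and 877 at a threshold of 0.01, 2085 and 1322 with median centring, and 1705 and 1844 with cyclic loess. Leaving out 1 array gave 958 to 1917 higher and 1010 to 1945 lower, both lowest without shPKCi replicate 2 and highest without shNT replicate 2. The 3 higher genes of the IGF axis lists became 5 without shNT replicate 2, 6 with median centring and with a filter at the lower quartile, 8 with a filter at the median and with array weights, and 7 with a trended variance and with log2 of intensity plus 16. Without any 1 array they numbered 3 to 5, and the lower ones 12 to 15. Among named genes that had not passed, FOXO1 turned to -0.041 with cyclic loess, and without 1 array FOXO1 ran from -0.066 to 0.088, FOXO3 from -0.11 to 0.38 and IGF1 from -0.15 to 0.018. The replicate numbers gave no sign of pairing the samples, though 3 arrays a group cannot exclude it. Deviations from the group means correlated at 0.107, -0.058 and -0.181 for same-numbered arrays, and at -0.164 to 0.205 for arrays of unlike number. The block changed no call of the group other than that of IRS2. Dim probe sets, IGFBP5 and IGF1 among them, limit what can be read at low signal.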

Other observations

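The arrays of shPKCi varied less among themselves than those of shNT in 8 of the 10 probe sets of the IGF binding protein, receptor and substrate genes, IGFBP5 and IRS1 being the exceptions. The median SD of log2 values over the 10 was 0.114 in shPKCi and 0.153 in shNT. Over all probe sets the medians were 0.101 in shPKCi and 0.145 in shNT, and 65.8% had the smaller SD in shPKCi. The shNT group includes replicate 2, the array that stood apart, with correlations of 0.973 to 0.988 with the others. Its interquartile range of log2 values, 2.815, was the narrowest of the 6 arrays. The next narrowest was 2.977, in shNT replicate 3. Whether the shPKCi arrays also varied less with shNT replicate 2 left out was not tested.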
